A study of Homo sapiens with 6 samples.

Results

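The spectrin-based membrane skeleton was examined through 8 genes: SPTB, SPTAN1, SPTBN1 and SPTBN4 (spectrins), ANK1 and ANK2 (ankyrins), ADD1 (an adducin) and EPB41 (erythrocyte protein 4.1). They were taken from the 60564 gene rows by gene symbol, and all 8 were found. The genes were put forward with the results of the same comparison known, so their values are a description and no count over the 8 is independent evidence of a change. The RNA came from A2780 cells, an established line from a human ovarian cancer, with 3 GPT2si and 3 GPT2sinc libraries, so each group is the same single line. The labels do not spell out si and sinc, and no further treatment, dose or time is given for either group. Separate cultures are not mentioned, and the spread on which the p-values rest is that between these libraries, which may be technical.

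Spectrins are long rod-shaped proteins in which an alpha and a beta chain run side by side and join end to end with another pair. The rods cross-link short actin filaments into a net under the plasma membrane. Adducin and protein 4.1 join spectrin to actin, and ankyrin ties beta spectrin to ion channels, transporters and adhesion molecules. SPTB and ANK1 are best known from red blood cells, where their loss causes hereditary spherocytosis, while SPTAN1 and SPTBN1 form the common pair of most other cells.

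SPTB (ENSG00000070182) lies on the minus strand of chromosome 14 from 64746283 to 64879907 (GRCh38, GENCODE 29). Its 2 RefSeq promoter windows (GRCh38.p14, 250 bases before to 50 bases after a transcription start) are shown because SPTB was the member with a large difference. The window of SPTAN1, its common alpha partner in other tissues, and that of CA9, a hypoxia-induced carbonic anhydrase whose pattern over the libraries was close to that of SPTB, are shown for comparison. Capitals mark ACGTG or GCGTG, the core letters bound by hypoxia-inducible factors, and the letters bound by GATA factors, which are GATA with an A or a T before it and an A or a G after it, on either strand.
SPTB upstream start, chr14:64879858-64880157, minus strand: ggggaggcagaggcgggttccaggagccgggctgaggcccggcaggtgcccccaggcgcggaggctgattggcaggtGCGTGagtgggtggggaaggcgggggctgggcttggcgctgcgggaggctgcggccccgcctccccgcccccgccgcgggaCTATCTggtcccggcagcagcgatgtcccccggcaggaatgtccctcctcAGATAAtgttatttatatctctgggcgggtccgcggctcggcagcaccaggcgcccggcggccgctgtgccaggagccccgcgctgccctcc
SPTB downstream start, chr14:64823331-64823630, minus strand: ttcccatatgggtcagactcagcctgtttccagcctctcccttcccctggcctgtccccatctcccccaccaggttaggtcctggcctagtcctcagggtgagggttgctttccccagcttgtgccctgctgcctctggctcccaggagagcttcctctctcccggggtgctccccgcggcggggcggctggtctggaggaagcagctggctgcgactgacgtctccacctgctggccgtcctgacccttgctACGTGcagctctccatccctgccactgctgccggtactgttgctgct
SPTAN1, chr9:128552337-128552636, plus strand: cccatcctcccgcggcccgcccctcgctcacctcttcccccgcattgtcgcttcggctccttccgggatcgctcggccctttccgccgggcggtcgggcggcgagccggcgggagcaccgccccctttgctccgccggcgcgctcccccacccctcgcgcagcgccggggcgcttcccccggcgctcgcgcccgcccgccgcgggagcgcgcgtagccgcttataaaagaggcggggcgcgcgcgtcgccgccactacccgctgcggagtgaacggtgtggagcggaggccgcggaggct
CA9, chr9:35673678-35673977, plus strand: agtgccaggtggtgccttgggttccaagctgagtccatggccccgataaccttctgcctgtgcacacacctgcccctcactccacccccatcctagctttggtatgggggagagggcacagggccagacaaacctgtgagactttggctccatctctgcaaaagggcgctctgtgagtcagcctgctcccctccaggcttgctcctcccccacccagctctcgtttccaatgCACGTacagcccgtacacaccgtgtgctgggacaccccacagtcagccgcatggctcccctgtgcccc
The upstream SPTB window held 2 GATA matches, at positions -92 and -42 from the start, and 1 GCGTG at -173. The downstream window held 1 ACGTG, at position 3, and no GATA match. The CA9 window held 1 match, CACGT, the reverse complement of ACGTG, at position -18. The SPTAN1 window held neither kind of match. The window of UPK1A, a gene closer to SPTB in its pattern than CA9, is not shown and also held neither kind.

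Such letters are common. Among all 35116 RefSeq promoter windows, 48.4% held ACGTG or GCGTG, 21.4% held ACGTG, 25% held 1 of the GATA forms, and 59.9% held CACCC, the letters bound by KLF factors. Windows were used for 7 of the 8 genes, 20 windows in all, of which 10 are those of ANK2. For these genes windows on chromosome 8 were left out, which removes ANK1. ACGTG or GCGTG was in 10 of the 20, ACGTG in 4, a GATA form in 7 and CACCC in 14. A match is a string of letters, not a bound site. The deposited counts are per gene, so which SPTB start was used cannot be read from them.

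GPT2, the gene named in the group labels, was at 93.8, 94.3 and 96.9 CPM (counts scaled to a common library size with TMM factors, as in the usual per-million unit) in GPT2si libraries 1 to 3, against 236, 230 and 219 CPM in GPT2sinc libraries 1 to 3, which fits the labels. Total counts per library ran from 41931162 to 50882329 in GPT2si and from 43351984 to 45508530 in GPT2sinc, and 3 counts equal 0.0597 to 0.0770 CPM over all libraries. Of the 9 epithelial and ovarian markers looked up, KRT8 and KRT18 were at 31.2 to 38.4 CPM in GPT2si and at 24.7 to 31.7 CPM in GPT2sinc as group means, and EPCAM at 1.61 and 1.94 CPM. KRT7 and WT1 had 0 counts in each library, and PAX8 averaged 0.195 CPM in GPT2si and 0.176 CPM in GPT2sinc, CDH1 0.251 and 0.190 CPM, and MUC16 0 and 0.0230 CPM, so most of these markers were absent or nearly so.

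SPTB, the red cell beta spectrin, was lower in GPT2si, with no overlap between the groups. It had 275, 159 and 213 counts in GPT2si libraries 1 to 3, against 627, 652 and 397 in GPT2sinc libraries 1 to 3. In CPM it was at 5.47, 4.08 and 4.68 in GPT2si and at 13.7, 14.0 and 9.12 in GPT2sinc. GPT2sinc 3 was the lowest of its group and still above all GPT2si libraries. The mean was 4.74 ± 0.70 CPM in GPT2si and 12.3 ± 2.74 CPM in GPT2sinc (SD, n = 3 each), so that 38.6% of the GPT2sinc level was left. On the log2 scale GPT2si over GPT2sinc came to -1.37 (SE 0.20), with an adjusted p of 0.0187 (edgeR's quasi-likelihood test, Benjamini-Hochberg over 17006 genes). In bulk RNA, fewer cells with a message and less of it per cell cannot be told apart.

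Of the 8 genes, 1 (SPTB, lower) was past the threshold of 0.05, against 1.42% of all tested genes in either direction and 0.841% lower. Because the genes were chosen on this comparison, nothing is read from that count. By p, SPTB ranked 43 among all tested genes, and 8 of the 143 genes called lower had a more negative log2 fold change. The call was not kept without GPT2si 1 (adjusted p = 0.0725, edgeR), without GPT2sinc 1 (adjusted p = 0.104, edgeR) or without GPT2sinc 2 (adjusted p = 0.118, edgeR), although the log2 fold change stayed between -1.54 and -1.26 in 14 alternative fits. Without a low-count filter the adjusted p was 0.0502 (edgeR), and by the DESeq2 Wald test it was 1.19e-08.

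**Figure D1:**
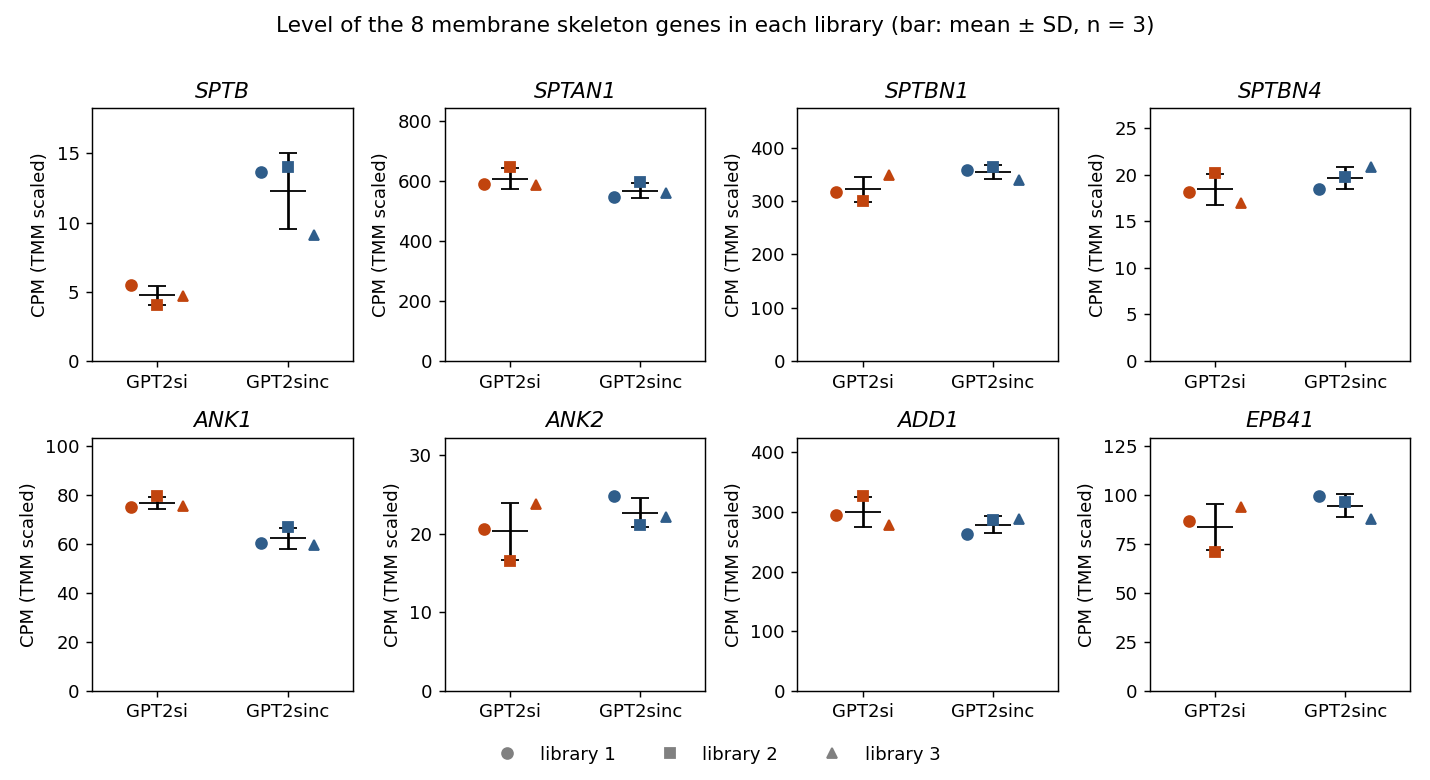
Level in CPM (TMM scaled, vertical axes from 0) of the 8 genes in each GPT2si library (left, red) and GPT2sinc library (right, blue); bars are means with SD, n = 3. SPTB lies at 4.08 to 5.47 CPM in GPT2si and at 9.12 to 14.0 CPM in GPT2sinc, ANK1 is the only other gene whose groups are apart, and the other 6 genes overlap.

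The exons of SPTB share 3408 bases with those of PLEKHG3, a guanine nucleotide exchange factor gene on the opposite strand. The libraries were strand-specific per the labels, but the strand setting of the counting is not given, so reads from that stretch could count for either gene. PLEKHG3 was at 24.4, 28.3 and 24.2 CPM in GPT2si, against 21.2, 25.2 and 23.5 CPM in GPT2sinc, with a log2 fold change of 0.14 (SE 0.11). It was thus not lower in GPT2si, unlike SPTB. Of the 6 nearest protein-coding genes on both sides of SPTB, 3 had enough counts to be tested and 0 passed edgeR, 0 of them also at an unadjusted p under 0.05 and 0 by DESeq2. CHURC1, a zinc finger gene on the other side, was at 28.6 ± 1.86 CPM in GPT2si and at 27.0 ± 0.96 CPM in GPT2sinc (SD, n = 3 each; log2 fold change 0.08, SE 0.10). The read-through gene CHURC1-FNTB (0.41, SE 1.06) shares sequence with CHURC1 and had 0 counts in 1 library of each group, so its value is uncertain. PPP1R36, HSPA2 and GPX2 had at most 2 counts in any library.

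SPTAN1 (ENSG00000197694; chromosome 9, 128552558 to 128633662, plus strand), the alpha spectrin of cells other than red cells, was the most abundant of the 8. It was at 588, 647 and 585 CPM in GPT2si and at 545, 595 and 561 CPM in GPT2sinc, with the groups overlapping (log2 fold change 0.10, SE 0.08). Its exons share 282 bases with an antisense RNA gene.

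SPTBN1 (ENSG00000115306; chromosome 2, 54456285 to 54671445, plus strand), the widespread beta spectrin, was at 316, 301 and 348 CPM in GPT2si and at 359, 365 and 339 CPM in GPT2sinc. Only GPT2si 3 reached into the GPT2sinc range, and the log2 fold change was -0.14 (SE 0.08). The exons of SPTBN1 share 627 and 202 bases with antisense RNA genes. SPTBN4 (ENSG00000160460; chromosome 19, 40466241 to 40576464, plus strand), the beta spectrin of axon initial segments and nodes, was at 18.2, 20.2 and 16.9 CPM in GPT2si and at 18.5, 19.7 and 20.8 CPM in GPT2sinc (-0.09, SE 0.11). Its groups overlapped. SPTBN5, another beta spectrin, was at 0.404 ± 0.050 CPM in GPT2si and at 0.401 ± 0.147 CPM in GPT2sinc (SD, n = 3 each; 0.02, SE 0.39), and its sign turned in 3 alternatives.

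Divided by the length of merged exons, which makes genes comparable, SPTB was a small part of the beta spectrin message. Its share of the summed beta spectrin level was 1.18%, 0.820% and 0.981% in GPT2si, against 2.86%, 2.83% and 1.91% in GPT2sinc. The mean share was 0.995% ± 0.182 in GPT2si and 2.53% ± 0.539 in GPT2sinc (SD, n = 3 each). SPTBN1 made up 53.8% ± 5.09 in GPT2si and 58.5% ± 1.65 in GPT2sinc (SD, n = 3 each). GPT2si 2 stood apart with 48.4% SPTBN1. The sum also holds a beta spectrin gene that is not reported here, so a share can move through the other genes as well. None of the members other than SPTB passed in edgeR: the adjusted p was 0.117 for ANK1, 0.534 for SPTAN1, 0.388 for SPTBN1, 0.683 for SPTBN4, 0.567 for ANK2, 0.534 for ADD1 and 0.416 for EPB41 (edgeR).

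ANK1 (ENSG00000029534), the red cell ankyrin, was the other gene whose groups did not overlap, in the direction opposite to SPTB. It was at 75.3, 79.6 and 75.5 CPM in GPT2si and at 60.3, 67.2 and 59.5 CPM in GPT2sinc. The lowest GPT2si library was thus above the highest GPT2sinc library. Means were 76.8 ± 2.43 CPM in GPT2si and 62.3 ± 4.21 CPM in GPT2sinc (SD, n = 3 each), with a log2 fold change of 0.30 (SE 0.09; adjusted p = 0.117, edgeR), which did not pass. ANK1 passed with the DESeq2 Wald test (adjusted p = 0.0491) and in edgeR with GC and length offsets (adjusted p = 0.0164), and its adjusted p went up to 0.422 in the other alternatives. Its exons share 842 bases with an antisense RNA gene, whose reads cannot be told apart without the strand setting. Groups that do not overlap were seen for 2 of the 8 genes, 1 in each direction, against 28.2% of all tested genes (14.9% higher and 13.2% lower).

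ANK2 (ENSG00000145362; chromosome 4, 112818109 to 113383740, plus strand), the ankyrin of heart and neurons that places ion transporters, was at 20.7, 16.5 and 23.8 CPM in GPT2si and at 24.8, 21.1 and 22.2 CPM in GPT2sinc (-0.16, SE 0.14). The groups overlapped. ANK3, the ankyrin of axon initial segments and epithelial lateral membranes, was at 51.1 ± 10.8 CPM in GPT2si and at 58.0 ± 5.80 CPM in GPT2sinc (SD, n = 3 each; -0.18, SE 0.15), and its sign turned with GC and length offsets (0.01). Per length, ANK1 made up 68.2%, 75.2% and 65.7% of the ankyrin level in GPT2si and 59.0%, 65.6% and 62.0% in GPT2sinc. The shares of GPT2si 3 and GPT2sinc 2 were nearly equal, and ANK1 was the most abundant ankyrin in each library.

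**Figure D2:**
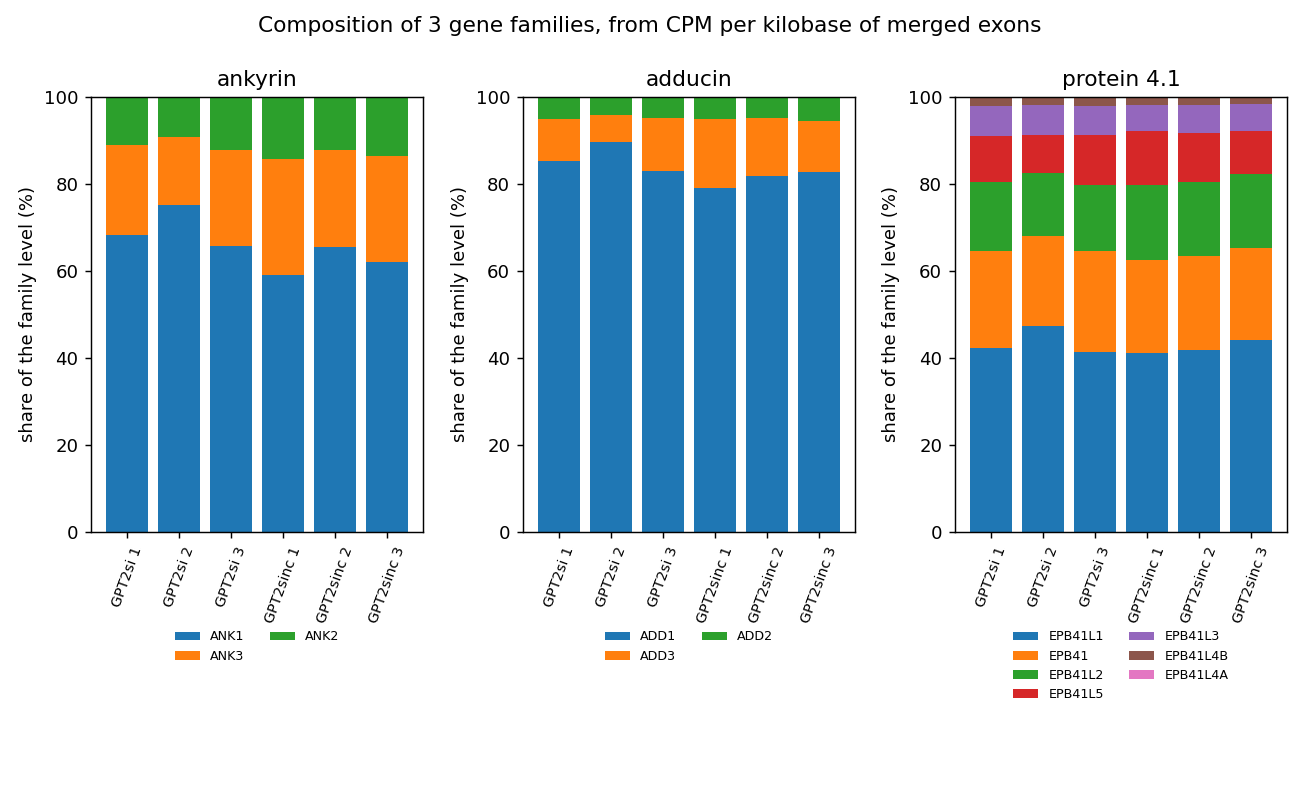
Share (%) of each gene in the summed level of the ankyrin, adducin or protein 4.1 family, from CPM per kilobase of merged exons, in the 3 GPT2si libraries (left) and the 3 GPT2sinc libraries (right). ANK1, ADD1 and EPB41L1 lead the ankyrins, adducins and protein 4.1 genes in each library, with ANK1 at 65.7% to 75.2% in GPT2si and 59.0% to 65.6% in GPT2sinc.

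ADD1 (ENSG00000087274; chromosome 4, 2843857 to 2930076, plus strand), which caps actin filaments and brings spectrin to them, was at 295, 327 and 278 CPM in GPT2si and at 262, 286 and 288 CPM in GPT2sinc (0.11, SE 0.09), with overlapping groups. Its partner ADD3 was lower in the GPT2si libraries, at 16.7, 11.4 and 20.3 CPM, against 26.5, 23.6 and 20.3 CPM in GPT2sinc. GPT2si 3 and GPT2sinc 3 were nearly equal, at 20.282 and 20.315 CPM, and the difference did not pass (-0.54, SE 0.20; adjusted p = 0.180, edgeR). ADD2 was at 15.9 ± 1.15 CPM in GPT2si and at 17.1 ± 1.21 CPM in GPT2sinc (SD, n = 3 each). ADD1 made up 85.9% ± 3.39 of the adducin level in GPT2si and 81.1% ± 1.98 in GPT2sinc.

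EPB41 (ENSG00000159023; chromosome 1, 28887091 to 29120046, plus strand), whose protein strengthens the bond of spectrin with actin, was at 86.5, 70.8 and 93.5 CPM in GPT2si and at 99.2, 96.4 and 87.7 CPM in GPT2sinc (-0.18, SE 0.11). The groups overlapped through GPT2si 3. Its exons share 619 bases with TMEM200B on the opposite strand. Its relatives EPB41L1, at 79.7 ± 1.08 CPM in GPT2si and 90.5 ± 2.01 CPM in GPT2sinc, and EPB41L2, at 30.0 ± 3.51 CPM in GPT2si and 39.0 ± 2.88 CPM in GPT2sinc (SD, n = 3 each), were lower in each GPT2si library. Neither passed (-0.18, SE 0.08 and -0.38, SE 0.12; adjusted p = 0.235 and 0.130, edgeR). The summed protein 4.1 family level was 19.4, 17.2 and 20.2 CPM per kilobase in GPT2si and 23.3, 22.3 and 20.7 CPM per kilobase in GPT2sinc. EPB41L3, EPB41L4B and EPB41L5 were at -0.08 (SE 0.12), -0.10 (SE 0.19) and -0.35 (SE 0.17) on the log2 scale, also short of the threshold, and EPB41L4A had too few counts to be tested. The protein 4.1 sums did not overlap between the groups. EPB41 kept about the same share of the sum, 22.0% ± 1.31 in GPT2si and 21.4% ± 0.24 in GPT2sinc. The summed ankyrin level was apart the other way, at 10.2, 9.81 and 10.6 CPM per kilobase in GPT2si. In GPT2sinc it was 9.47, 9.48 and 8.89 CPM per kilobase. The sums of alpha spectrin, beta spectrin and adducin overlapped. Among single tested genes, 28.2% had groups that did not overlap.

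**Figure D3:**
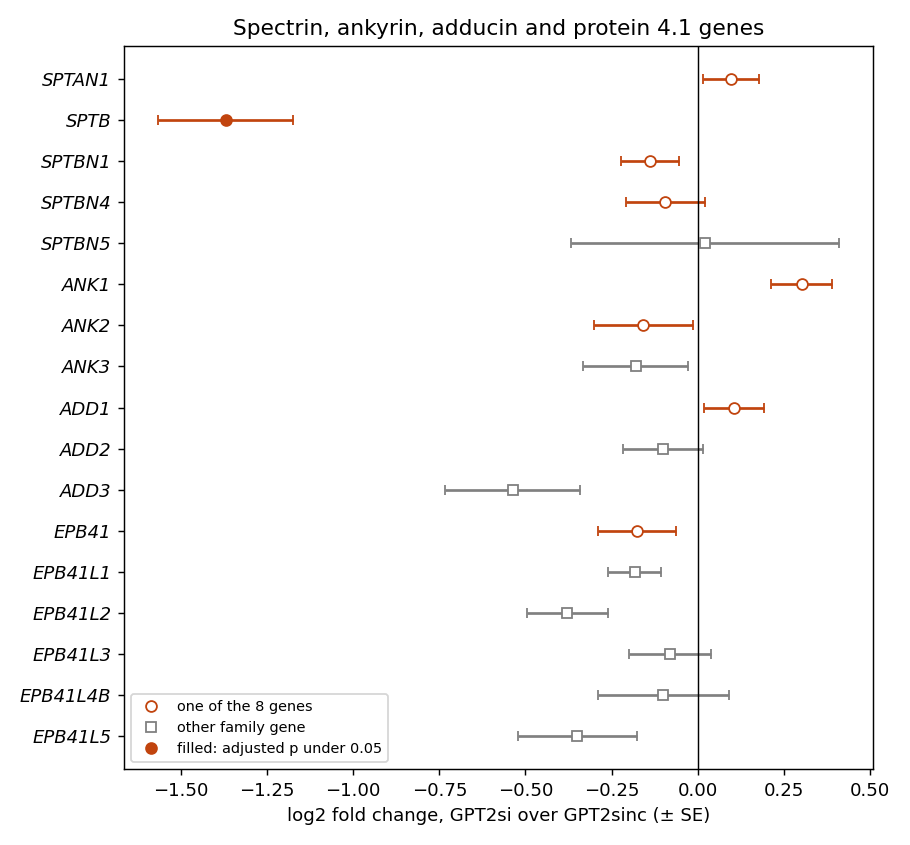
Log2 fold change of GPT2si over GPT2sinc with its standard error for the 8 genes (circles) and other tested genes of their families (squares); filled symbols have an adjusted p under 0.05. SPTB stands alone at -1.37, while the other 7 genes lie between -0.18 for EPB41 and 0.30 for ANK1.

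Among themselves the 8 genes spanned a wide range of levels. Per kilobase of merged exons the order was the same in both groups, from SPTAN1 (37.4 in GPT2si and 34.9 in GPT2sinc), ADD1 (22.9 and 21.3) and SPTBN1 (17.4 and 19.1) through ANK1 (7.11 and 5.77) and EPB41 (4.18 and 4.72) to SPTBN4 (1.60 and 1.70), ANK2 (1.12 and 1.25) and SPTB (0.320 and 0.830). Neighbours in this order did not overlap over the 3 libraries of either group. With the longest transcript in place of merged exons, EPB41 stood above ANK1 (13.1 against 9.06 in GPT2si and 14.8 against 7.35 in GPT2sinc). SPTB was thus the least abundant of the 8 on either scale.

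**Figure D4:**
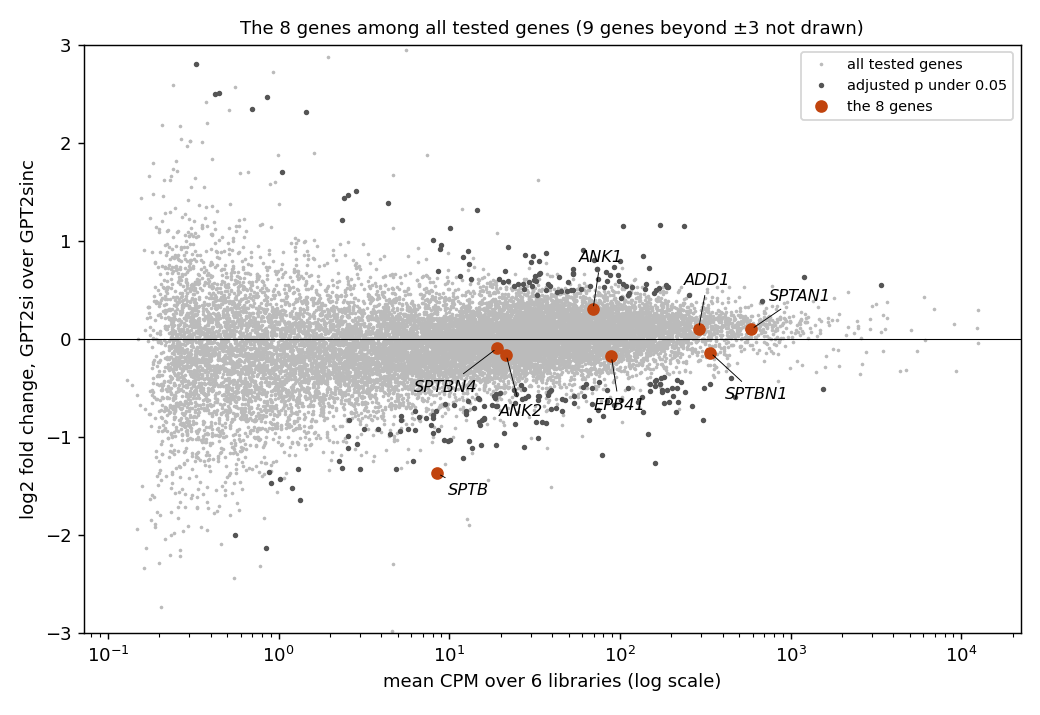
Mean level over the 6 libraries (CPM, log axis) and log2 fold change of GPT2si over GPT2sinc for the tested genes (those beyond the axis limits, 9 of 17006, are not drawn), with those past the threshold dark and the 8 genes red. SPTB has the lowest level of the 8 and lies at -1.37, below the other 7 genes, which lie between -0.18 and 0.30.

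One library often carried the extreme value. GPT2si 2 had the highest level of all 6 libraries for 3 of the 8 genes (SPTAN1, ANK1 and ADD1) and the lowest for 4 (SPTB, SPTBN1, ANK2 and EPB41). When edgeR was given offsets for GC content and length, the log2 fold changes of SPTBN1, ANK2 and EPB41 moved to -0.05, -0.02 and -0.06, and that of SPTB to -1.34. Those of SPTAN1, ADD1, SPTBN4 and ANK1 moved to 0.14, 0.13, -0.12 and 0.32, each larger in size than in the reported fit. The GC content of the longest transcript was 50.3% for SPTBN1, 46.1% for ANK2, 40.6% for EPB41 and 59.2% for SPTB. It was 53.5% for SPTAN1, 46.4% for ADD1, 65.7% for SPTBN4 and 58.7% for ANK1. The part of GC content and length in these values was not tested further. Without GPT2si 2, SPTB was at -1.29 (adjusted p = 0.0164, edgeR) and ANK1 at 0.26 (adjusted p = 0.0768, edgeR).

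**Figure D5:**
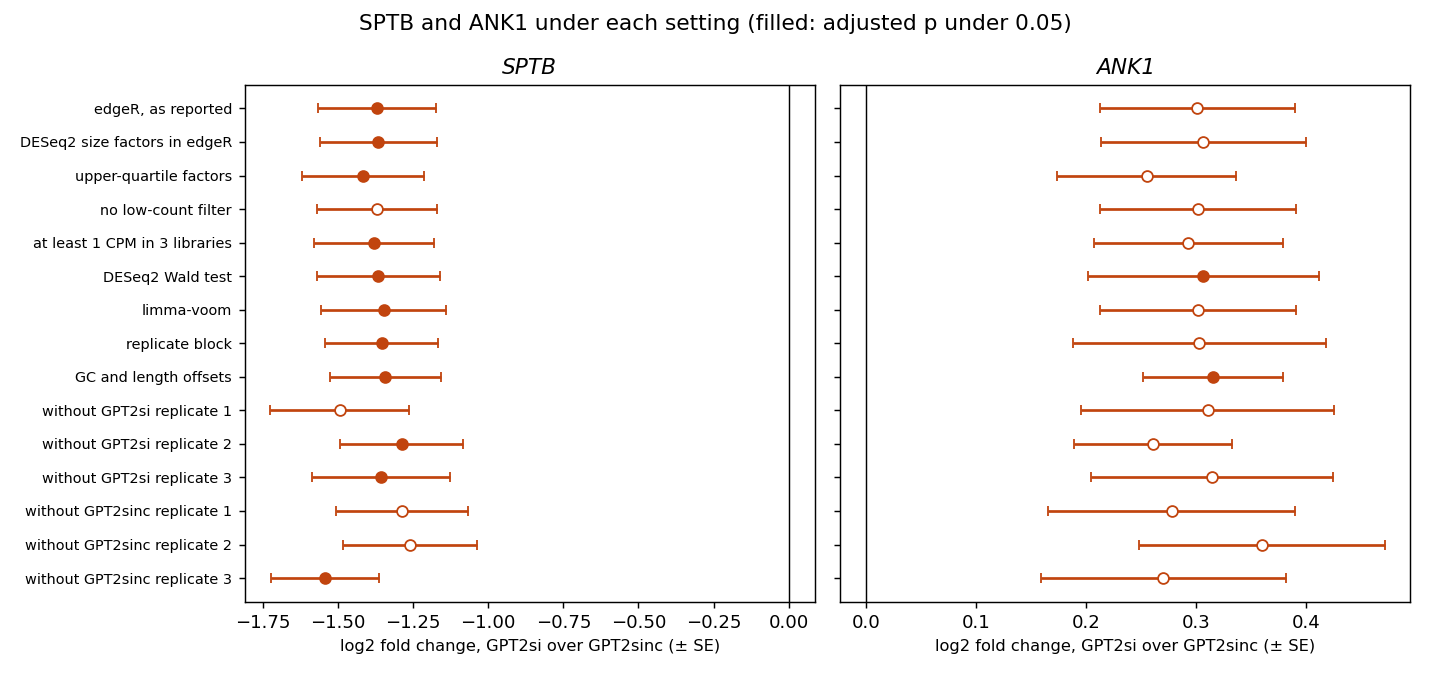
Log2 fold change of GPT2si over GPT2sinc with its standard error for SPTB (left) and ANK1 (right) in the reported fit and in 14 alternatives; filled symbols have an adjusted p under 0.05. SPTB stays between -1.54 and -1.26 and passes in 10 of the alternatives, and ANK1 stays between 0.26 and 0.36 and passes in 2.

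Beyond the 8 genes, 56 other genes were looked up, comprising family paralogs, actin junction partners, membrane anchors, spectrin proteases with their inhibitor, and erythroid transcription factors. Of these, 41 had enough counts to be tested. By edgeR 0 of them passed. An unadjusted p under 0.05 was reached by 13, 6 higher and 7 lower, and by 19.6% of all tested genes. By the DESeq2 Wald test 5 passed, 2 of them higher, against 1046 of all 17006 tested genes. The median log2 fold change of the 41 genes was 0.04, against -0.01 over all tested genes. By group, the median was -0.14 over 10 family paralogs, 0.10 over 13 actin junction partners, 0.01 over 8 membrane anchors, 0.06 over the 7 proteases and inhibitor, and 0.26 over 3 erythroid transcription factors.

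At the actin junction, DMTN (dematin, which bundles actin and binds spectrin) came closest to the threshold, with 7.54, 6.93 and 5.97 CPM in GPT2si against 10.7, 11.6 and 10.2 CPM in GPT2sinc (-0.67, SE 0.14; adjusted p = 0.0584, edgeR). Its groups did not overlap, and it passed in 5 of 14 alternatives. TPM1, a tropomyosin that lies along actin filaments, was at 213 ± 15.7 CPM in GPT2si and at 174 ± 7.35 CPM in GPT2sinc (0.29, SE 0.08), and ACTB, beta actin, at 7621 ± 925 CPM in GPT2si and at 6158 ± 477 CPM in GPT2sinc (SD, n = 3 each; 0.31, SE 0.11). ACTB shares long near-identical stretches with ACTG1 and with processed pseudogenes, so its count is uncertain. The exons of TPM1 share 2070 bases with an antisense RNA gene. EPB42, a red cell protein that binds ankyrin and band 3, had 0 counts in each library.

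Among membrane partners of ankyrin and protein 4.1, L1CAM, an adhesion molecule that binds ankyrin, was at 3.44, 2.08 and 3.82 CPM in GPT2si and at 6.91, 7.49 and 4.89 CPM in GPT2sinc. All GPT2si libraries were below all GPT2sinc libraries, but the difference did not pass (-1.04, SE 0.25; adjusted p = 0.0743, edgeR). The exons of L1CAM share 439 bases with another gene on the same strand. SLC4A3, an anion exchanger related to band 3, was at 21.0 ± 1.87 CPM in GPT2si and at 26.8 ± 1.42 CPM in GPT2sinc (SD, n = 3 each; -0.35, SE 0.11). GYPC, a red cell glycophorin, had 0 counts in each library, as did CD44 and NRCAM, and SLC4A1 (band 3) averaged 0.182 CPM in GPT2si and 0.098 CPM in GPT2sinc. These genes are named for being under the low-count filter.

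Of the calpains, calpastatin and caspases, which cut spectrin or limit its cutting, none passed in edgeR and none had an unadjusted p under 0.05. CAPNS1, the small calpain subunit, was at 500.0 ± 79.3 CPM in GPT2si and at 430 ± 38.1 CPM in GPT2sinc (SD, n = 3 each; 0.22, SE 0.12).

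Of the 7 factors looked up that are known to drive red cell genes, 4 had too few counts to be tested and 3 were tested. GATA1 and KLF1 had counts in no GPT2si library and in 1 GPT2sinc library each, and TAL1 averaged 0.218 CPM in GPT2si and 0.147 CPM in GPT2sinc. GATA2 was at 46.9, 52.2 and 45.0 CPM in GPT2si and at 33.9, 37.0 and 37.2 CPM in GPT2sinc, with groups that did not overlap (0.41, SE 0.10; adjusted p = 0.0766, edgeR). NFE2 was at 20.6, 25.1 and 20.5 CPM in GPT2si and at 27.8, 28.5 and 30.6 CPM in GPT2sinc, apart in the other direction (-0.39, SE 0.11; adjusted p = 0.117, edgeR). The 11 erythroid markers summed to 1.33 to 1.72 CPM in GPT2si and 1.72 to 1.89 CPM in GPT2sinc; 5 of the 11 had 0 counts throughout, HBB, ALAS2 and AHSP among them, and HBA1, which is nearly identical to HBA2, was the most abundant at 0.72 CPM in GPT2si and 0.90 CPM in GPT2sinc as group means. SPTB and ANK1 were thus measured beside very little RNA of erythroid marker genes.

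Some markers of neurons and muscle were present, and cell lines can express single ones. The 10 neuronal markers summed to 206 to 229 CPM in GPT2si and 241 to 247 CPM in GPT2sinc, carried by MAP2, TUBB3 and SYP, while SNAP25 averaged 0.029 and 0 CPM and RBFOX3 0.017 and 0.044 CPM. The 10 striated muscle markers summed to 474 to 596 CPM in GPT2si and 476 to 539 CPM in GPT2sinc, nearly all from TNNT1, with MYH7 and TNNI2 at 0. The exons of TUBB3 share 1584 bases with another gene on the same strand. The part of these neuronal and muscle markers in the values of the 8 genes was not tested.

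The protein-coding genes with a pattern over the 6 libraries most like that of SPTB were UPK1A, DUOX2, ANGPTL4, NDRG1 and CA9. Likeness was the root mean square difference of centred log2(CPM + 1) over the 6 libraries, among genes with a mean of at least 5 CPM, and it was 0.17 for UPK1A, DUOX2 and ANGPTL4 and 0.18 for NDRG1 and CA9. Relative to its own mean, SPTB lay at -0.42, -0.77 and -0.61 in GPT2si and at 0.76, 0.80 and 0.23 in GPT2sinc. NDRG1, a stress-induced gene, lay at -0.39, -0.63 and -0.32 in GPT2si and at 0.71, 0.58 and 0.04 in GPT2sinc, with GPT2sinc 3 lowest of its group as for SPTB. DUOX2, an oxidase that makes hydrogen peroxide, shared the low GPT2sinc 3 (0.28, against 0.73 and 0.67 in GPT2sinc 1 and 2). GPT2sinc 3 was also the lowest of its group for UPK1A (0.47), ANGPTL4 (0.32) and CA9 (0.51), by smaller margins. Since SPTB was low in GPT2si, genes picked for likeness to it are low there as well. Promoter windows were used for 4 of these 5 genes, as windows on chromosome 8, where NDRG1 lies, were left out. Of the 4, 3 (those of DUOX2, ANGPTL4 and CA9) held ACGTG or its reverse complement, against 21.4% of all promoter windows. With GCGTG counted as well, it was the same 3, against 48.4% of all promoter windows. The genes were picked from these same libraries, so nothing is read from these counts.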

How the data were processed

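The 6 libraries of the A2780 line were made by poly(A)-selected, dUTP-stranded RNA-seq, per the labels' protocols. The table the authors deposited holds raw counts, whole numbers for each Ensembl gene and library. Per the submitters' processing notes CASAVA and StringTie were used, and their role and version, like the aligner, strand setting, build and annotation, are not given. Groups and replicate numbers come from the sample titles, and 0 columns were left unmapped. Of 60564 rows, 60295 matched a symbol and 58457 a GENCODE 29 gene, used for positions, GC content and lengths.

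GPT2si was compared with GPT2sinc by the quasi-likelihood test of edgeR 4.0.16 (R 4.3.3; TMM factors, filterByExpr, group as the only term) over 17006 genes, with Benjamini-Hochberg adjustment and a threshold of 0.05. SE came from the F statistic. CPM are scaled by TMM factors, and levels per kilobase use merged exons. Alternatives were DESeq2 size factors or upper-quartile factors, no low-count filter, at least 1 CPM in 3 libraries, DESeq2 1.42.0, limma-voom (limma 3.58.1), a replicate block, loess offsets (span 0.5) for GC and length, and leaving out each library. The floor of 3 counts covers counting error only, while SD and SE include the spread between libraries.

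The 8 genes and the gene lists were chosen with earlier results of these data known. Named are GPT2, the 8 genes, their paralogs, of each other list the 2 smallest p and the most abundant gene, the neighbours of SPTB, markers above 1 CPM or leading their list, and the 5 genes most like SPTB. Some genes of these lists are not reported here, though counts over a list include them. Genes under the filter are named outside this rule, after their values were seen. No libraries were duplicates: any pair of libraries differed beyond sampling noise (chi-square over its degrees of freedom at least 8.23).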

Additional observations from a re-analysis of the deposited data

How the results depend on the processing

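Of the 241 genes past the edgeR test, the number was 44 with no low-count filter, 1046 with DESeq2, 558 with the replicate block, 2238 with GC and length offsets, and 1 to 836 when 1 library was left out (most without GPT2si 2, fewest without GPT2sinc 2). Of the 8 genes, 1 (SPTB) passed, 0 with no low-count filter, 2 (SPTB and ANK1) with DESeq2 and 2 with GC and length offsets, and 0 to 1 without 1 library. Of the 41 tested genes of the other lists (paralogs, junction partners, anchors, proteases and erythroid transcription factors) 0 passed, 1 with upper-quartile factors (DMTN), 5 with DESeq2 (TPM1 and the transcription factor GATA2 higher, DMTN, L1CAM and EPB41L2 lower), 2 with the replicate block (DMTN and L1CAM), 13 with GC and length offsets, and 0 to 5 without 1 library. The causes were not tested. The deviations of same-numbered libraries correlated at 0.33, 0.25 and -0.51, and not every library correlated best with its own. With 3 libraries per group, these values cannot decide whether same-numbered libraries were paired. Signs turned for SPTBN5 (-0.024 with upper-quartile factors, -0.22 to 0.32 without 1 library), ANK3 (0.0064 with GC and length offsets), TNNT1 (-0.025 with those offsets, -0.073 to 0.11 without 1 library), EPB41L4B (-0.21 to 0.023 without 1 library), NEFL (-0.080 to 0.25), SYP (-0.0051 to 0.26) and CHURC1-FNTB (-0.41 to 1.09), none of them past the test. The difference in the SPTB share of beta spectrin, -1.54 percentage points, was -1.41 with the longest transcript and -1.47 without division by length, and -1.85 to -1.37 without 1 library. SPTB rests on 159 to 652 counts per library, which limits its precision.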
